A study of Mus musculus with 19 samples.

Results

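Extracellular adenosine pathway genes were followed across 19 mouse tumours. The 9 genes were taken by symbol from the deposited count table: Entpd1, Nt5e and Cd38, whose products make adenosine or its precursors outside cells, the receptor genes Adora1, Adora2a and Adora2b, and Ada, Adk and Slc29a1, whose products remove or carry adenosine. All 9 were among the 46983 genes counted, and all 9 were among the 16763 genes that passed the filter on low counts.

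The tumours grew from 4T1, a mammary carcinoma line of the BALB/c mouse, in syngeneic mice of strain BALB/cAnN that had each received 1000000 cells. The labels call the tumours with reduced lactate dehydrogenase A LDHA-KD (cell line 4T1-KD, knockdown tumours from here on), and the control tumours carry the cell line label 4T1-Sc. The labels name a single line for each tumour type and do not say whether either is 1 clone. Mice received anti-CTLA-4, an antibody that blocks an inhibitory receptor of T cells, or control IgG, from 3 days after implantation, in 3 doses given 3 days apart. IgG-treated control tumours numbered 4 (replicates 1, 3, 4 and 5). The other groups, control tumours given anti-CTLA-4 and knockdown tumours given IgG or anti-CTLA-4, numbered 5 each (replicates 1 to 5). The series compares control with LDHA-deficient tumours under either treatment. No label says that each sample came from a separate mouse, and p-values here reflect only sample-to-sample spread, which may be technical.

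Dying and stressed cells release ATP. CD39, the product of Entpd1, trims ATP and ADP to AMP, and CD73, the product of Nt5e, turns AMP into adenosine, which acts on nearby cells through receptors on their surface. The receptors encoded by Adora2a and Adora2b raise cyclic AMP and restrain T cells, while the one encoded by Adora1 lowers it. Mouse regulatory T cells carry both CD39 and CD73, and many tumour cells carry CD73. Adenosine leaves the extracellular space through nucleoside transporters, after which adenosine kinase turns it back into AMP, or adenosine deaminase turns it into inosine.

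Sequencing gave between 31.8 and 43.3 gene counts per sample in units of 1000000. Values are gene counts per 1000000 counts of the scaled library (CPM), and 3 counts, the floor used for detection, are worth between 0.0693 and 0.0944 CPM. The floor covers counting error only. Ldha ran from 1283 to 2244 CPM in the 9 control samples and from 452 to 584 in the 10 knockdown samples. In the comparison of the tumour types, all 8 T cell markers and all 7 mast cell markers were higher in knockdown tumours under either treatment. The keratins and other epithelial markers of the tumour cells were detected in every group, and no marker of the 15 cell type lists was at 0 in every sample of a group. On the second principal component, which held 17.0% of the variance, replicates 3 and 5 of both anti-CTLA-4 groups stood apart from the rest.

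Of the 9 genes, Entpd1, Cd38, Adora2a and Ada were higher and Nt5e was lower in knockdown than in control tumours under IgG. The same 5 genes passed in the same directions under anti-CTLA-4. That is 5 of 9 under IgG, where 34.3% of all genes tested passed (16.8% higher, 17.5% lower), and 5 of 9 under anti-CTLA-4, where 40% passed (20.2% higher, 19.8% lower; edgeR's quasi-likelihood test, Benjamini-Hochberg adjusted p under 0.05). Groups without overlap between the tumour types were seen for 5 of the 9 genes under IgG, against 30.4% of all genes, and for 4 of 9 under anti-CTLA-4, against 23.2%. Passing in the same direction under both treatments was met by 5 of the 9 genes and by 28.2% of all genes. The median log2 difference of the 9 genes was 0.14 under IgG and 0.08 under anti-CTLA-4, against medians over all genes of 0.00 and 0.01. Between anti-CTLA-4 and IgG, 0 of the 9 genes passed in either tumour type, and 0 of all genes did by edgeR.

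The pair of enzymes that turn ATP into adenosine moved in opposite directions between the tumour types. Sequences from before their RefSeq starts are shown because both genes have a window with the same short motif, GCGTG, a core of the hypoxia response element that is in 28.2% of all mouse promoter windows. The other Entpd1 window has 0 such cores. The sequences are those of RefSeq on GRCm38.p6, which is the genome of another strain than these mice. The first is the 250 bases before a start site of Entpd1 on the plus strand (chr19:40612116-40612365). Capitals mark CGTCA, which is the cyclic AMP response half-site TGACG read on the other strand, and GCGTG.
Entpd1 promoter: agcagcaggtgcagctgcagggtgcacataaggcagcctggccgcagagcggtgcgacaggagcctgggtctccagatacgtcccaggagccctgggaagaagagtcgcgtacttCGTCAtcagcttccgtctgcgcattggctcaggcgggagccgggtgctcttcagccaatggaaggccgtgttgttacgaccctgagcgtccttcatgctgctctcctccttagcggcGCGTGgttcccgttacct
The next is the 30 bases around the GCGTG of the Nt5e window before its RefSeq start, on the plus strand (chr9:88327459-88327488), with GCGTG in capitals. GENCODE places the gene start further upstream, so this stretch lies inside an annotated Nt5e exon.
Nt5e window: tccctgcgggctGCGTGtgctgggccagag
The third is the matching stretch of Adora2b, on the plus strand (chr11:62248930-62248959), where CACGC in capitals is GCGTG read on the other strand.
Adora2b promoter: cccccgtaaggcCACGCccccgcccccgtc
Promoters were found for 8 of the 9 genes, all but Adora2a, as 18 windows of 250 bases, of which 8 belong to Slc29a1. Searched on both strands, ACGTG or GCGTG was in 10 of the 18 windows (55.6%) and in 38.6% of the 32851 mouse promoter windows. TGACG was in 4 of the 18 windows and in 17.8% of all. The promoter windows of Cd38 and Ada held no match to these letters. The Cd38 window and the second Adora1 window, like that of Nt5e, lay wholly inside annotated exons of their gene. Some Slc29a1 windows did so in part. A match is a description of the sequence, not a binding site.

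Entpd1 (chr19:40612366-40741602, plus strand, coordinates here and below from GENCODE M21 on GRCm38) encodes CD39. In replicate order it stood at 32.4, 54.1, 52.8 and 46.9 CPM in IgG-treated control tumours and at 65.9, 60.8, 71.0, 62.2 and 74.2 CPM in IgG-treated knockdown tumours. With anti-CTLA-4 the control tumours had 38.5, 50.03, 50.3, 43.1 and 56.7 CPM and the knockdown tumours 58.0, 61.1, 100.5, 80.1 and 86.7 CPM. Every knockdown sample was above every control sample of the same treatment, and the 3 highest values were anti-CTLA-4-treated knockdown replicates 3, 4 and 5. Entpd1 rose by 0.52 on the log2 scale under IgG (SE 0.16, adjusted p 0.0173, edgeR), a 1.44-fold difference of the means fitted. Under anti-CTLA-4 it rose by 0.70 (SE 0.15, adjusted p 0.00132). The first of these rests on 1 library: without control IgG replicate 1, the lowest sample, the log2 difference was 0.38 with an adjusted p of 0.0706.

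Nt5e (chr9:88327197-88372092, plus strand) encodes CD73, which makes adenosine from AMP. It stood at 1719.9, 1343, 1565 and 1213 CPM in IgG-treated control tumours and at 839.7, 907, 714, 981 and 854 CPM in IgG-treated knockdown tumours. With anti-CTLA-4 it was 1726, 1341, 1395, 1868 and 1518 CPM in control tumours and 901, 894, 988, 967 and 945 CPM in knockdown tumours. No knockdown sample reached the lowest control sample. Nt5e fell by 0.77 on the log2 scale under IgG (SE 0.11, adjusted p 4.30e-05, edgeR) and by 0.74 under anti-CTLA-4 (SE 0.11, adjusted p 3.14e-05), which is 1.70 and 1.67 times lower.

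Cd38 (chr5:43868553-43912375, plus strand) encodes an ectoenzyme that breaks down NAD, the entry of a side route to AMP and adenosine. Its values were 21.9, 25.1, 19.2 and 21.9 CPM in IgG-treated control tumours and 45.4, 51.7, 44.3, 51.1 and 55.1 CPM in IgG-treated knockdown tumours. With anti-CTLA-4 they were 19.5, 24.0, 21.5, 21.2 and 24.2 CPM in control tumours and 52.4, 49.8, 49.1, 50.5 and 45.9 CPM in knockdown tumours. The tumour types formed 2 narrow bands with no sample between 25.1 and 44.3 CPM. Cd38 had the largest change of the 5 genes that passed, with a rise of 1.17 on the log2 scale under IgG (SE 0.09, adjusted p 1.45e-08, edgeR). Under anti-CTLA-4 the rise was 1.17 (SE 0.08, adjusted p 6.24e-09).

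**Figure D1:**
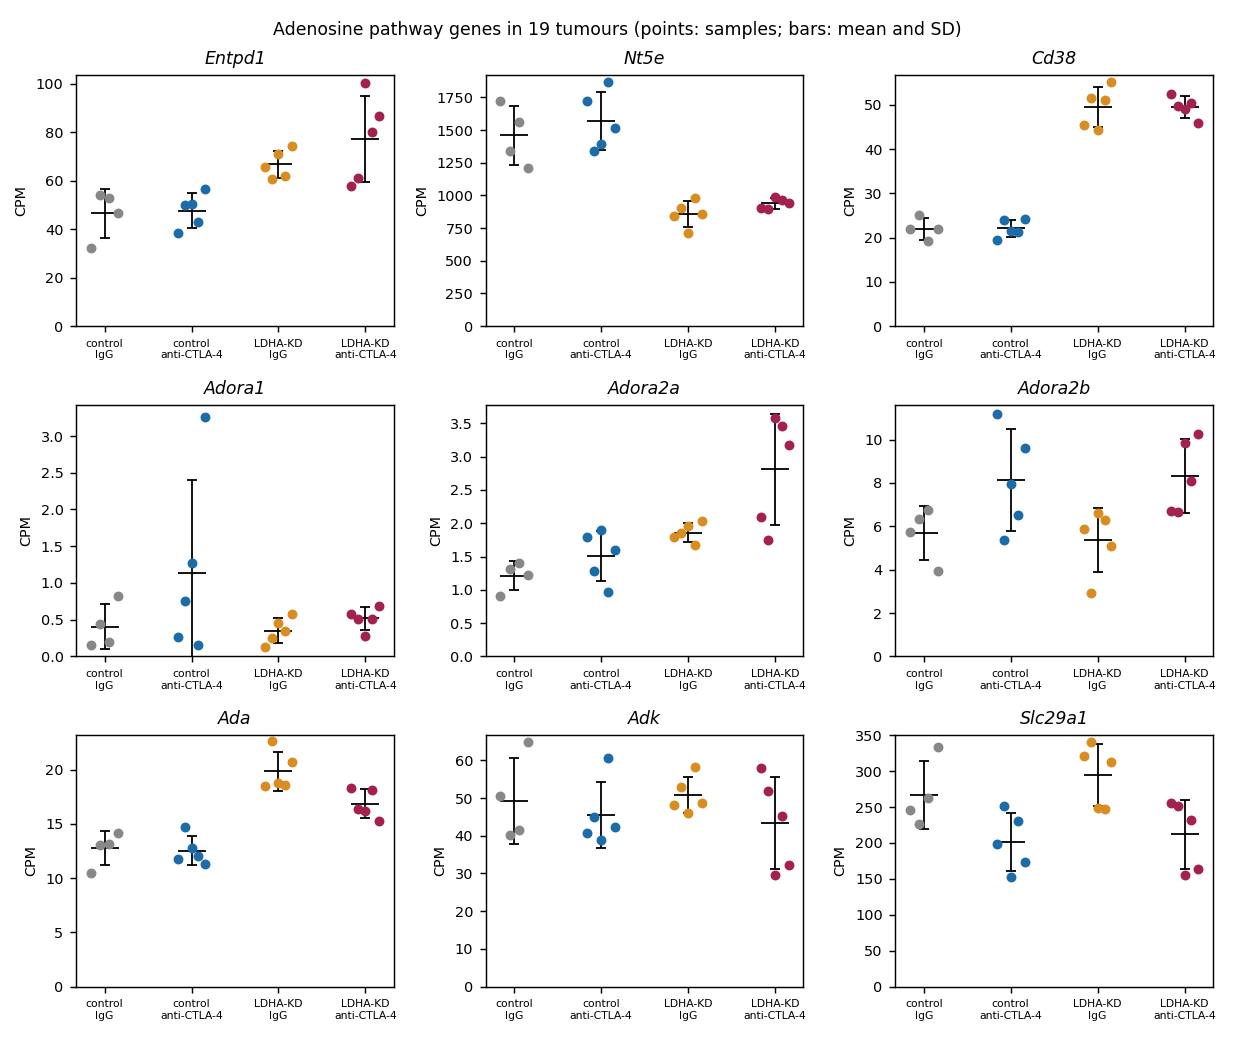
CPM of the 9 genes in each of the 19 samples by group, with a linear axis from 0 in each panel; points are samples, in replicate order from left to right within a group, and bars are mean and SD, cut at 0 for Adora1. Nt5e is lower and Entpd1 and Cd38 are higher in each knockdown sample than in any control sample of the same treatment, while Adora2b, Adk and Slc29a1 overlap between the tumour types.

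Of the receptors, Adora2a (chr10:75316877-75334784, plus strand) was higher in knockdown tumours and the other members of the family among the 9 genes did not pass. Adora2a encodes the receptor through which adenosine restrains T cells. It stood at 0.900, 1.31, 1.41 and 1.23 CPM in IgG-treated control tumours and at 1.79, 1.85, 1.96, 1.67 and 2.04 CPM in IgG-treated knockdown tumours, from between 34 and 75 counts per library. With anti-CTLA-4 it was 1.79, 1.29, 1.89, 0.965 and 1.60 CPM in control tumours and 2.09, 1.76, 3.58, 3.46 and 3.17 CPM in knockdown tumours. The groups did not overlap under IgG, whereas replicate 2 of the anti-CTLA-4-treated knockdown tumours fell within the control range. Adora2a rose by 0.62 on the log2 scale under IgG (SE 0.23, adjusted p 0.0428, edgeR) and by 0.90 under anti-CTLA-4 (SE 0.21, adjusted p 0.00217). The rise under IgG was close to the threshold: without a filter on low counts its adjusted p was 0.0730, by limma-voom 0.0592, and without control IgG replicate 1 it was 0.139.

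Adora2b (chr11:62248984-62266453, plus strand) encodes the receptor of lower affinity, which also raises cyclic AMP. Under IgG it stood at 5.72, 6.35, 6.76 and 3.93 CPM in control tumours and 5.89, 2.92, 6.63, 6.30 and 5.09 CPM in knockdown tumours. With anti-CTLA-4 it stood at 11.2, 5.36, 7.94, 6.52 and 9.62 CPM in control tumours and at 6.72, 6.67, 9.82, 8.11 and 10.3 CPM in knockdown tumours. The tumour types overlapped under both treatments, with log2 differences of -0.09 (95% interval -0.59 to 0.41) under IgG and 0.04 (-0.43 to 0.50) under anti-CTLA-4.

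Adora1 (chr1:134199223-134235431, minus strand) encodes the receptor that lowers cyclic AMP, and it had the fewest counts of the 9 genes, 5 to 108 per library. Its values were 0.159, 0.435, 0.189 and 0.827 CPM in IgG-treated control tumours and 0.132, 0.256, 0.459, 0.340 and 0.572 CPM in IgG-treated knockdown tumours. With anti-CTLA-4 they were 0.265, 0.749, 1.27, 0.161 and 3.26 CPM in control tumours and 0.581, 0.513, 0.276, 0.515 and 0.692 CPM in knockdown tumours. Control anti-CTLA-4 replicate 5 was the highest sample, and in the same library the 4 adipocyte markers summed to 586 CPM, against 45.1 to 240.3 CPM in the other 18 samples. The part of adipocytes in the Adora1 values was not tested. The log2 difference between knockdown and control tumours was -0.19 under IgG (SE 0.71, adjusted p 0.864, edgeR). It was -1.13 in the anti-CTLA-4 groups (SE 0.60, adjusted p 0.139), and 0.42 there without replicates 3 and 5 of both. Exons of Adora1 share 1162 bases with Mybph on the opposite strand, and the strand setting of the counting was not given in the sources used here.

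Among the genes that remove adenosine, Ada (chr2:163726584-163750239, minus strand), which encodes adenosine deaminase, was higher in knockdown tumours. It stood at 10.5, 13.1, 13.2 and 14.2 CPM in IgG-treated control tumours and at 18.5, 22.6, 18.7, 18.6 and 20.7 CPM in IgG-treated knockdown tumours. With anti-CTLA-4 it was 11.8, 14.8, 12.8, 12.1 and 11.3 CPM in control tumours and 18.3, 16.4, 16.2, 18.1 and 15.3 CPM in knockdown tumours. The tumour types did not overlap under either treatment, though the gap under anti-CTLA-4 was narrow, from 14.8 to 15.3 CPM. Ada rose by 0.64 on the log2 scale under IgG (SE 0.10, adjusted p 8.74e-05, edgeR) and by 0.43 under anti-CTLA-4 (SE 0.10, adjusted p 0.00152).

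Adk (chr14:21052574-21448569, plus strand) encodes adenosine kinase, the enzyme that returns adenosine to AMP inside cells. Its group means were 49.3 ± 11.5 CPM (SD, n = 4) in IgG-treated control tumours and 50.8 ± 4.82 CPM (n = 5) in IgG-treated knockdown tumours. With anti-CTLA-4 they were 45.5 ± 8.73 CPM (n = 5) in control tumours and 43.4 ± 12.2 CPM (n = 5) in knockdown tumours. The log2 difference between the tumour types was 0.05 (95% interval -0.34 to 0.43) under IgG and -0.07 (-0.43 to 0.29) under anti-CTLA-4, neither past the threshold.

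Slc29a1 (chr17:45585200-45599606, minus strand) encodes an equilibrative nucleoside transporter that moves adenosine across the plasma membrane. With IgG it averaged 267 ± 46.9 CPM (SD, n = 4) in control and 294 ± 43.2 CPM (n = 5) in knockdown tumours, a log2 difference of 0.14 (95% interval -0.22 to 0.50). With anti-CTLA-4 it averaged 201 ± 40.3 CPM (n = 5) in control and 212 ± 48.3 CPM (n = 5) in knockdown tumours, a log2 difference of 0.08 (-0.26 to 0.41). Its exons share 275 bases with the antisense gene Gm17080.

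Fewer cells of a type and less RNA per cell cannot be told apart in these whole tumours. The summed epithelial markers of the tumour cells ran from 3997 to 5204 CPM in control and from 2176 to 3439 CPM in knockdown samples, in the direction of Nt5e, and 3 of 7 of these markers were lower under IgG and 5 of 7 under anti-CTLA-4. Endothelial markers were lower for 5 of 6 genes under IgG and 2 of 6 under anti-CTLA-4, with sums from 311 to 414 CPM in control and from 201 to 353 CPM in knockdown samples. Of 6 fibroblast markers, 3 were lower and 1 higher under IgG, and 0 were lower and 2 higher under anti-CTLA-4. Within the knockdown anti-CTLA-4 group replicate 3 had the lowest epithelial sum and the highest Nt5e (2176 and 988 CPM). Replicate 2 of that group had the highest sum and the lowest Nt5e (3411 and 894 CPM). In the knockdown IgG group replicate 3 had the highest sum and the lowest Nt5e (3439 and 714 CPM). In control tumours given anti-CTLA-4 the sum was highest in replicate 1 and lowest in replicate 5. Nt5e was highest there in replicate 4 and lowest in replicate 2. Among IgG-treated control tumours, replicate 1 had the highest epithelial sum and the highest Nt5e (5204 and 1720 CPM). Replicate 5 had the lowest of both (4090 and 1213 CPM). The direction of Entpd1, Cd38, Adora2a and Ada was shared by the macrophage markers, of which 7 of 9 were higher under IgG and 9 of 9 under anti-CTLA-4. Macrophage sums ran from 1329 to 2326 CPM in control and from 3290 to 3838 CPM in knockdown samples. It was also shared by the regulatory T cell markers, of which 6 of 6 were higher under both treatments, with sums from 15.2 to 53.7 CPM in control and from 53.6 to 114 CPM in knockdown samples. Dendritic cell markers were higher for 5 of 7 genes and lower for 1 under both treatments, and NK cell markers higher for 4 of 5 and lower for 1. Neutrophil markers were higher for 1 of 7 genes under IgG and 0 of 7 under anti-CTLA-4, and B cell markers for 1 of 3 tested under both. Of 3 plasma cell markers tested, 1 was higher and 1 lower under IgG, and 2 were higher and 1 lower under anti-CTLA-4. The 7 mast cell markers summed to between 83.5 and 143 CPM in control and between 303 and 758 CPM in knockdown samples. In the knockdown anti-CTLA-4 group replicate 1 had the lowest Entpd1 (58.0 CPM) and fibroblast sum (2701 CPM). Replicate 3 had the highest of both (100.5 and 7271 CPM). The endothelial sum (237 and 353 CPM) and the regulatory T cell sum (74.4 and 114 CPM) were also lowest in replicate 1 and highest in replicate 3. Macrophage sums in that group ran from 3372 to 3838 CPM. In the knockdown IgG group Entpd1 was highest in replicate 5 (74.2 CPM), as was the regulatory T cell sum (72.0 CPM). The fibroblast sum was highest in replicate 3 (3595 CPM) and the endothelial sum in replicate 4 (258 CPM). The part of these cells in the 5 gene changes was not tested.

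**Figure D2:**
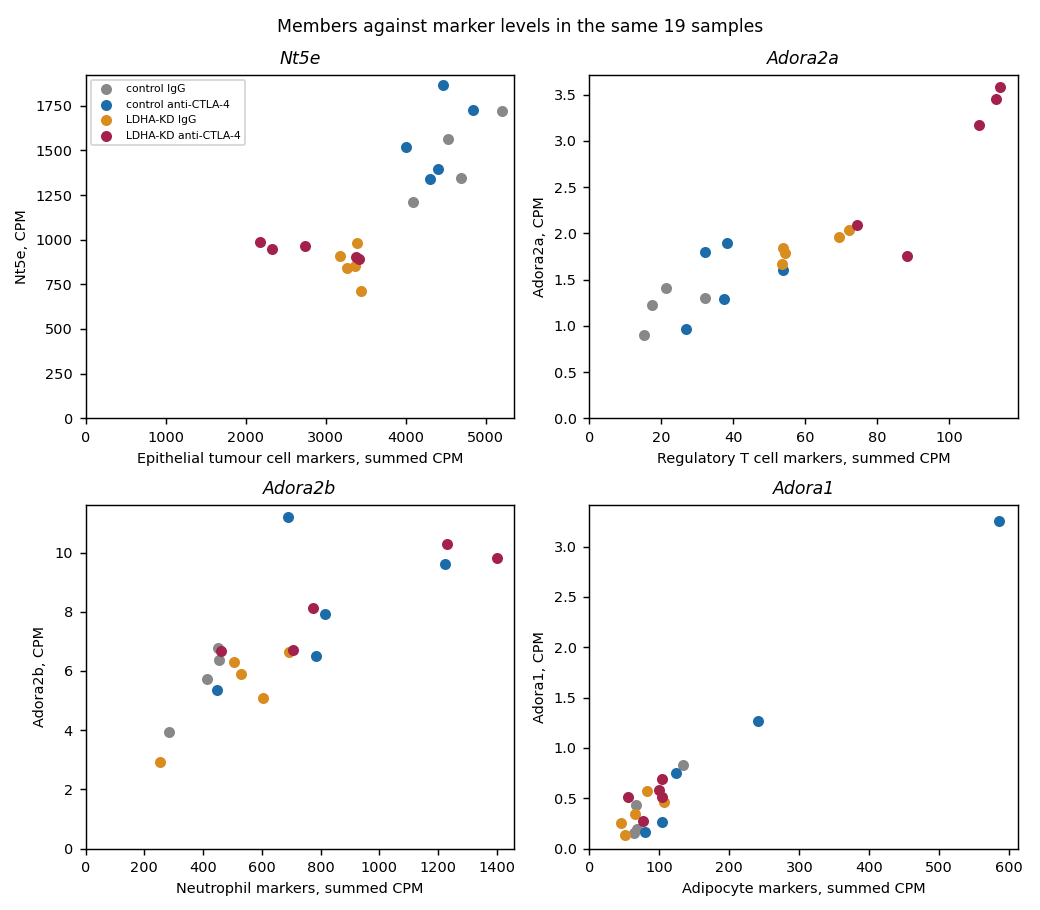
CPM of 4 genes against the summed CPM of a marker list in the same 19 samples, on linear axes from 0, coloured by group. Among knockdown anti-CTLA-4 samples the lowest epithelial sum (2176 CPM) comes with the highest Nt5e (988 CPM). The highest sum of that group (3411 CPM) comes with its lowest Nt5e (894 CPM). Among knockdown IgG samples the highest sum (3439 CPM) comes with the lowest Nt5e (714 CPM). Among IgG-treated control samples the highest epithelial sum (5204 CPM) comes with the highest Nt5e (1720 CPM). The lowest sum of that control group (4090 CPM) comes with its lowest Nt5e (1213 CPM). The sample with the highest Adora1 (3.26 CPM) also has the highest adipocyte sum (586 CPM).

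Levels of different genes were compared as CPM per kilobase of annotated exons. In IgG-treated control tumours the order was Nt5e (170 ± 26.3, SD, n = 4), Slc29a1 (66.6 ± 11.7), Entpd1 (8.34 ± 1.78), Ada (6.36 ± 0.785), Adk (5.78 ± 1.34), Cd38 (5.66 ± 0.628), Adora2b (3.09 ± 0.677), Adora2a (0.395 ± 0.0717) and Adora1 (0.0696 ± 0.0534). The sample ranges of Entpd1, Ada, Adk and Cd38 overlapped, so their order there is not set beyond the spread. In IgG-treated knockdown tumours, Cd38 (12.7 ± 1.16, n = 5) and Entpd1 (11.97 ± 1.02), whose sample ranges overlapped, came after Nt5e (99.9 ± 11.4) and Slc29a1 (73.4 ± 10.8). Ada (9.91 ± 0.897) was next, with a range that overlapped that of Entpd1 but not that of Cd38. Adk (5.96 ± 0.566) came below Cd38, Entpd1 and Ada, and its range did not touch theirs. With anti-CTLA-4 Cd38 stood at 5.67 and Adk at 5.33 in control tumours, where their ranges overlapped, and at 12.7 and 5.09 in knockdown tumours, where they did not. Nt5e had the highest mean per length of the 9 genes in every group. In IgG-treated knockdown tumours its lowest sample (83.0) was below the highest Slc29a1 sample (85.1), so their order there is not set beyond the spread.

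**Figure D3:**
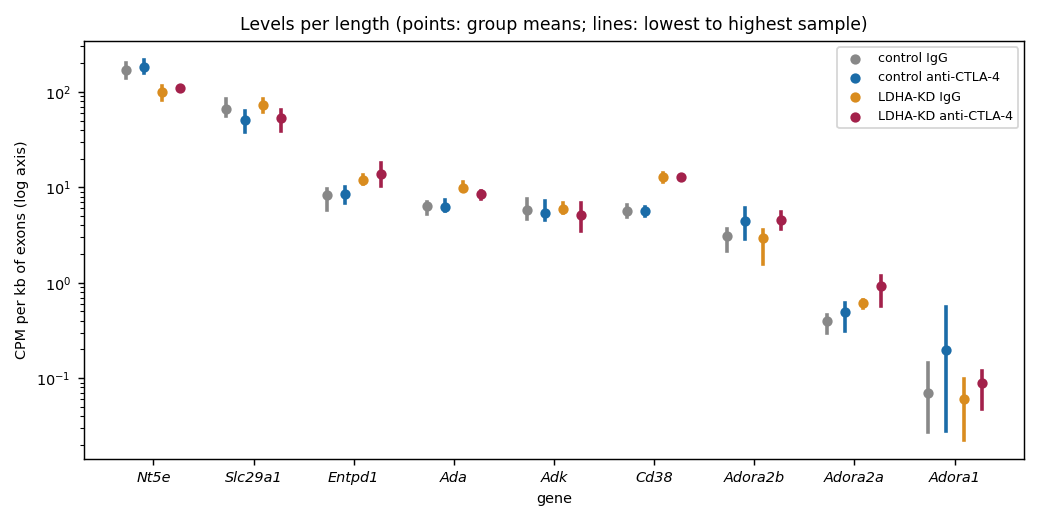
CPM per kilobase of exons on a log axis for the 9 genes in the 4 groups; points are group means and lines run from the lowest to the highest sample. Nt5e (99.9 to 182) and Slc29a1 (50.1 to 73.4) lie above the rest in every group mean, and Adora1 lies lowest in every group mean.

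Blockade of CTLA-4 was compared with IgG within each tumour type. No member passed: 0 of 9 genes in control tumours and 0 of 9 in knockdown tumours, against 0% of all genes in both, by edgeR. By DESeq2, which called 11 genes higher and 1 lower in control tumours and 40 higher and 7 lower in knockdown tumours, 0 of the 9 genes passed. At an unadjusted p under 0.05 there were 3 of 9 in control tumours (Adora1, Adora2b and Slc29a1), where 8.03% of all genes reached it. In knockdown tumours there were 4 of 9 (Adora2a, Adora2b, Ada and Slc29a1), where 11.9% did.

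Slc29a1 and Adora2b were the genes with the same direction and an unadjusted p under 0.05 in both tumour types, and they went opposite ways. Slc29a1 stood at 246, 226, 262 and 334 CPM with IgG and at 198, 251, 153, 230.4 and 173 CPM with anti-CTLA-4 in control tumours. In knockdown tumours it stood at 321, 341, 249, 248 and 312 CPM with IgG and at 256, 252, 156, 232 and 164 CPM with anti-CTLA-4. Its groups overlapped in both tumour types, and replicates 3 and 5 with anti-CTLA-4 were the lowest in each. The log2 difference was -0.41 (SE 0.17, p 0.0269, adjusted p 0.601, edgeR) in control tumours and -0.47 (SE 0.16, p 0.00850, adjusted p 0.312) in knockdown tumours.

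For Adora2b the log2 difference was 0.51 (SE 0.24, p 0.0458, adjusted p 0.615, edgeR) in control tumours and 0.63 (SE 0.22, p 0.0108, adjusted p 0.316) in knockdown tumours. In knockdown tumours each of the 5 anti-CTLA-4 samples was above each of the 5 IgG samples, by a gap from 6.63 to 6.67 CPM. Neutrophil markers moved with it: their sum was lowest, at 253 and 283 CPM, in the samples with the lowest Adora2b (2.92 and 3.93 CPM). It was highest, at 1224 to 1402 CPM, in 3 anti-CTLA-4 samples with 9.62 to 10.3 CPM of Adora2b, while the highest Adora2b, 11.2 CPM, came with a sum of 690.0 CPM. The part of neutrophils in the Adora2b values was not tested.

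The mean of the anti-CTLA-4 effects over both tumour types, added after these values had been seen, was -0.44 on the log2 scale for Slc29a1 (SE 0.12, p 0.00131, adjusted p 0.112, edgeR), 0.57 for Adora2b (SE 0.16, p 0.00244, adjusted p 0.120) and 0.46 for Adora2a (SE 0.16, p 0.00841, adjusted p 0.153). None of the 9 genes passed, and 0% of all genes did, while 4 of the 9 genes and 18.1% of all genes had an unadjusted p under 0.05. By DESeq2, which called 418 of all genes higher and 121 lower for this mean effect, Slc29a1 (adjusted p 0.0251) and Adora2b (adjusted p 0.0298) passed. Without replicates 3 and 5 of both anti-CTLA-4 groups the edgeR values were -0.25 and 0.43, each with an adjusted p of 0.952.

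Adora2a and Ada had their larger anti-CTLA-4 differences in knockdown tumours. Adora2a differed by 0.60 on the log2 scale there (SE 0.21, p 0.00969, adjusted p 0.314, edgeR) and by 0.32 in control tumours (SE 0.23, adjusted p 0.718). The 3 highest Adora2a values, 3.17 to 3.58 CPM, were in anti-CTLA-4-treated knockdown replicates 3, 4 and 5, and the regulatory T cell sum of that group, 74.4 to 114 CPM, lay above that of every other group; the part of these cells in Adora2a was not tested. Ada was lower in each anti-CTLA-4 than in each IgG sample of the knockdown tumours, a log2 difference of -0.23 (SE 0.09, p 0.0225, adjusted p 0.352), and was -0.02 (SE 0.10, adjusted p 0.965) in control tumours. Groups without overlap occurred for 2 of the 9 genes in knockdown tumours (Adora2b and Ada), where 1.38% of all genes had them, and for 0 of 9 in control tumours, where 1.27% did.

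The interaction asks whether the anti-CTLA-4 effect differs between the tumour types. It passed for 0 of the 9 genes and for 0% of all genes by edgeR, and 0 of 9 had an unadjusted p under 0.05 against 2.48% of all genes. DESeq2 and limma-voom also called 0 of the 9 genes. For Ada the interaction was -0.21 (95% interval -0.50 to 0.08) and for Adora2a 0.28 (-0.37 to 0.93), so the larger differences in knockdown tumours are not shown to differ from those in control tumours. Nt5e, Entpd1 and Cd38 did not pass in either tumour type, and Cd38 had the narrowest intervals, -0.18 to 0.19 in control and -0.17 to 0.17 in knockdown tumours.

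**Figure D4:**
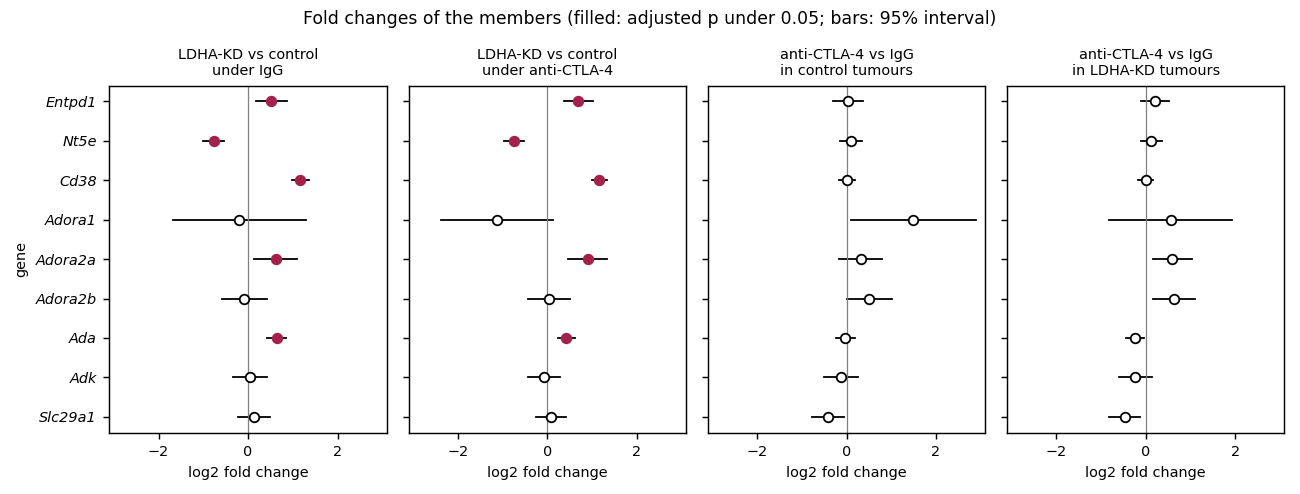
Log2 fold changes of the 9 genes in the 4 comparisons of a pair of groups, with 95% intervals from edgeR; filled points have an adjusted p under 0.05. The filled points are Entpd1, Nt5e, Cd38, Adora2a and Ada in both comparisons of the tumour types, and there are 0 in the comparisons of the treatments.

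The wider purine network was read from a list of 55 other genes, of which 54 were counted and 45 tested. Under IgG 17 rose and 4 fell in knockdown tumours (46.7%, where 34.3% of all genes passed), with a median log2 difference of 0.20. Under anti-CTLA-4 15 were higher and 5 lower (44.4%, where 40% of all genes passed), with a median of 0.19. Of the 45 genes, 13 were higher and 3 lower under both treatments, where 28.2% of all genes passed in the same direction under both.

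Enpp1 and Dpp4, both on this list, encode surface enzymes. Enpp1, an ectoenzyme that splits ATP and other nucleotides to AMP, was the gene with the largest fall, by 1.61 on the log2 scale under IgG (SE 0.17, adjusted p 8.19e-07, edgeR) and by 1.48 under anti-CTLA-4 (SE 0.16, adjusted p 1.28e-06). It ran from 70.1 to 117 CPM in control and from 22.02 to 41.7 CPM in knockdown samples. Dpp4 rose by 1.05 under IgG (SE 0.26, adjusted p 0.00430) and by 1.17 under anti-CTLA-4 (SE 0.24, adjusted p 0.000913). Its knockdown samples ran from 7.51 to 13.4 CPM and its control samples from 2.53 to 7.70 CPM, so it overlapped slightly under anti-CTLA-4.

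Slc28a2, which encodes a sodium-driven purine nucleoside carrier, rose by 1.66 on the log2 scale under IgG (SE 0.26, adjusted p 6.66e-05, edgeR) and by 1.499 under anti-CTLA-4 (SE 0.23, adjusted p 6.26e-05). The list thus held a nucleoside carrier that was higher in knockdown tumours, in which Slc29a1 did not pass. P2ry10, a receptor gene of lymphoid and myeloid cells, rose by 1.32 (SE 0.16, adjusted p 5.31e-06) and by 1.64 (SE 0.15, adjusted p 1.34e-07). Adora3, the remaining adenosine receptor gene, rose by 0.56 (SE 0.13, adjusted p 0.00250) and by 0.65 (SE 0.12, adjusted p 0.000350), from 3.41 to 4.56 CPM in control to 4.56 to 7.07 CPM in knockdown samples. Exons of Adora3 share 779 bases with Tmigd3 on the same strand, so its counts are uncertain. Between anti-CTLA-4 and IgG, 0 of the 45 genes passed in control tumours and 0 in knockdown tumours by edgeR or DESeq2, with 7 and 10 at an unadjusted p under 0.05, which 8.03% and 11.9% of all genes reached.

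**Figure D5:**
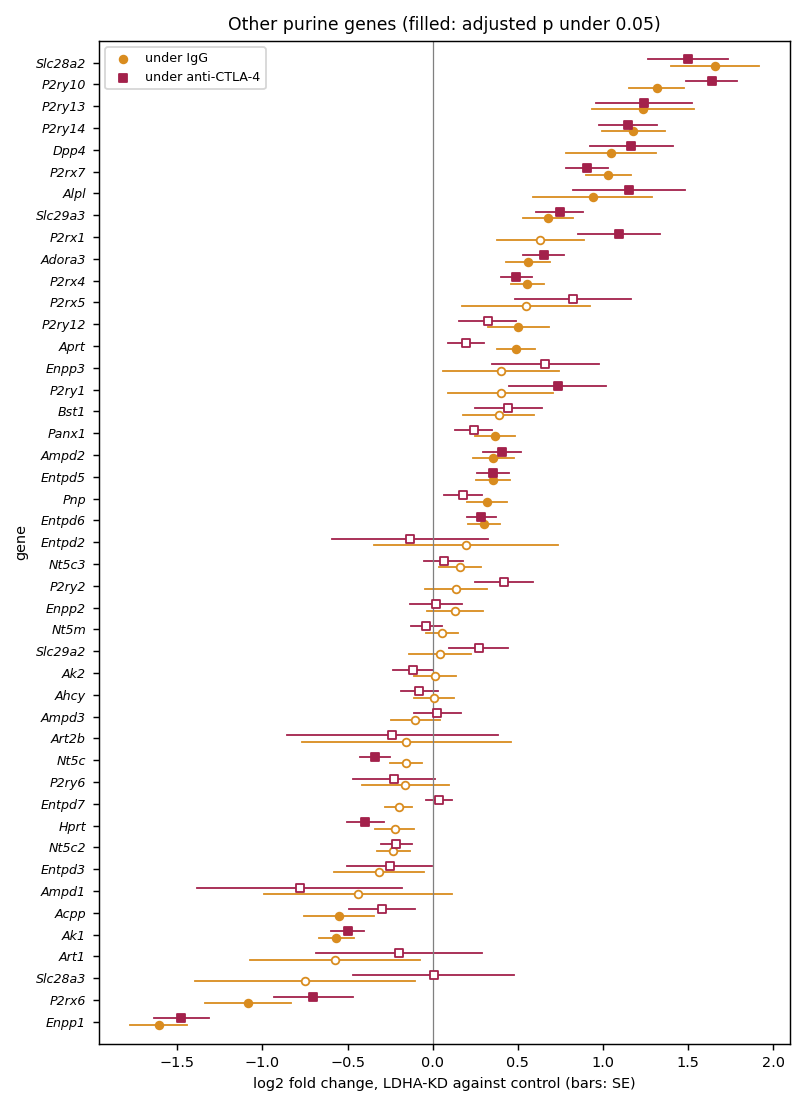
Log2 fold changes of the 45 other purine genes between knockdown and control tumours under IgG (circles) and under anti-CTLA-4 (squares), with bars of 1 SE and filled points where the adjusted p is under 0.05. Slc28a2 (1.66 and 1.499) and P2ry10 (1.32 and 1.64) lie at the top, and Enpp1 (-1.61 and -1.48) at the bottom.

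Genes around cyclic AMP, the messenger of the receptors encoded by Adora2a and Adora2b, were read from a list of 15, all tested. The list mixes genes induced by cyclic AMP with genes that make, carry or break down its signal (Gnas, Adcy7, Adcy9, Prkaca, Prkar1a, Creb1 and the Pde4 phosphodiesterases), and Adcy7, Pde4b, Pde4d and Creb1 were among those that passed in a comparison of the tumour types. Under IgG 5 rose and 2 fell in knockdown tumours, and under anti-CTLA-4 7 were higher and 1 lower, with medians of 0.10 and 0.26. That is 46.7% and 53.3%, where 34.3% and 40% of all genes passed. Nr4a2, a nuclear receptor gene induced by cyclic AMP, rose by 0.69 on the log2 scale under IgG (SE 0.11, adjusted p 0.000116, edgeR) and by 1.04 under anti-CTLA-4 (SE 0.11, adjusted p 5.79e-07). Its relative Nr4a3 rose by 0.73 (SE 0.18, adjusted p 0.00491) and by 1.01 (SE 0.17, adjusted p 0.000146). Per1, a clock gene with cyclic AMP response elements, rose by 0.55 (SE 0.19, adjusted p 0.0326) and by 1.10 (SE 0.18, adjusted p 9.85e-05). Sik1, a kinase gene also induced by cyclic AMP, went the other way and fell by 0.85 (SE 0.14, adjusted p 0.000122) and by 0.62 (SE 0.13, adjusted p 0.00111). Crem did not pass, with log2 differences of -0.03 under IgG (adjusted p 0.873, edgeR) and 0.26 under anti-CTLA-4 (adjusted p 0.0806). Nr4a1 did not pass under IgG (0.07, adjusted p 0.818, edgeR) but did under anti-CTLA-4 (0.68, adjusted p 0.00748). Between anti-CTLA-4 and IgG, 0 of the 15 genes passed in either tumour type by edgeR, with 0 in control and 6 in knockdown tumours at an unadjusted p under 0.05, which 8.03% and 11.9% of all genes reached.

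The genes most like each member were found by Pearson's r of log2 CPM after the group means were taken off, over the 19 samples and at least 11624 genes. These samples share their libraries and tissue makeup, and no p is given. Adora1 was most like Adipoq and Plin4 (r 0.95 for both), which are adipocyte genes. Adora2a was most like Hvcn1 (r 0.93) and Selplg (r 0.92), both expressed in leukocytes. Adora2b was most like Mettl7b (r 0.91) and Angptl4 (r 0.90). Ada was most like Dph1 (r 0.89) and the macrophage complement gene C1qb (r 0.89). Entpd1 was most like Lilra6 (r 0.96) and Prelp (r 0.95), and Cd38 was most like Ppm1k (r 0.82) and Pydc3 (r 0.77). Nt5e was most like Mtss1 (r 0.86) and Csrp1 (r 0.84), Slc29a1 like Ptpdc1 (r 0.92) and Cldn2 (r 0.91), and Adk like Plrg1 and Acat1 (r 0.98 for both).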

How the data were processed

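The authors deposited raw counts per gene for the 19 samples, 1 column each, with 5 summary lines that were left out of totals and tests. Per the submitters' processing notes HTSeq 0.5.3, Picard 1.124 and build mm10 were used. The aligner, annotation release and strand setting are not given in the sources used here. Libraries came from frozen tissue, 500 ng of RNA, poly(A) selection and a stranded kit, per the labels' protocols. Of all records, 8.42% to 13.8% fell in no gene.

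The model was fitted with edgeR 4.0.16 in R 4.3.3 (filterByExpr on group, TMM factors, 1 coefficient per group over all 19 samples, quasi-likelihood F test, Benjamini-Hochberg adjustment over 16763 genes, threshold 0.05), checked on simulated counts. CPM uses TMM-scaled libraries, and log2 CPM a prior count of 2. Alternatives were DESeq2 1.42.0, limma-voom (limma 3.58.1), other scaling factors, no filter, only the groups compared, a replicate block and leaving out libraries. Gene models matched GENCODE M21 for 46488 of 46983 identifiers. No 2 libraries were copies (lowest chi-square per gene 5.01). All 9 members were named in every comparison. From the purine and cyclic AMP lists, the 3 largest changes per comparison of the tumour types were named, with Adora3, Dpp4 and Enpp1. Crem and Nr4a1 were added afterwards. Members and lists were chosen with earlier results of these data known. Other genes in the text were named as markers, overlapping genes or most-alike genes (2 per member, among genes whose mean log2 CPM reached 1 and no predicted-gene name).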

Additional observations from a re-analysis of the deposited data

Results flagged for a closer look

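Adk in control tumours with anti-CTLA-4 had 1 sample far from the others. Replicate 4 stood at 60.6 CPM and the next sample at 44.9 CPM, a gap of 0.721 of the group's range against a critical value of 0.710 for 5 samples. Of the 36 groups of values examined this was the only such sample, and chance marks about 1 in 20.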

How the results depend on the processing

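The 5 members that passed between the tumour types passed under every scaling, filter, tool and model tried under anti-CTLA-4. Under IgG they did so with the exceptions given above for Adora2a. Leaving out 1 library left 3 to 5 members under IgG, with 3 without control IgG replicate 1 (Entpd1 and Adora2a lost), and 5 under anti-CTLA-4 in every case. Adora2a under IgG was lost in 8 of 19 cases, also without control IgG replicate 3 or 5, LDHA-KD IgG replicate 1, 2, 3 or 5, or control anti-CTLA-4 replicate 5 (largest adjusted p 0.139). For the mean anti-CTLA-4 effect, 0 to 1 members and 0 to 2 other purine genes passed with 1 library left out: Slc29a1 had an adjusted p of 0.0451 without anti-CTLA-4-treated LDHA-KD replicate 2. With a replicate block 2 members (Slc29a1 and Adora2b, adjusted p 0.0173 and 0.0220) and 5 other purine genes passed, and with DESeq2 2 members and 3 other purine genes. Over all genes this effect had 0 calls in the model reported, 566 higher and 234 lower with the block, 418 and 121 with DESeq2 and 4 and 0 without the filter. With 1 library left out it had up to 319 and 122, without anti-CTLA-4-treated LDHA-KD replicate 2. DESeq2 called 11 and 1 genes for anti-CTLA-4 in control tumours and 40 and 7 in LDHA-KD tumours, where edgeR called 0. Deviations of same-numbered samples correlated above 0.1 in 0 of 4 pairs between tumour types under IgG, 4 of 5 under anti-CTLA-4, 3 of 4 between treatments in control tumours (-0.21 to 0.39) and 2 of 5 in LDHA-KD tumours. Since not every pair did, and not every sample correlated best with its own number, the numbers were not taken as pairs. These correlations cannot settle whether samples of the same number share an effect, so the counts with the replicate block are given beside the model reported.

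Changes of sign were limited to log2 differences that did not pass. For Cd38 between treatments in LDHA-KD tumours they were -0.00103 with DESeq2 size factors, -0.000665 with upper-quartile factors, -0.00280 with DESeq2 and -0.00462 with only the groups compared. With the replicate block Adora2b between tumour types under IgG was 0.0124 and Cd38 between treatments in control tumours -0.0133. Without replicates 3 and 5 of both anti-CTLA-4 groups, the tumour type differences under anti-CTLA-4 were 0.42 for Adora1, -0.10 for Adora2b and 0.084 for Adk. In control tumours the treatment differences were then -0.083 for Entpd1, -0.028 for Cd38 and 0.016 for Ada, and in LDHA-KD tumours -0.0078 for Entpd1 and 0.024 for Adk. The cause was not tested.

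Leaving out 1 library gave both signs as follows. Between tumour types under IgG, Adora1 ran from -0.46 to 0.43, Adora2b from -0.23 to 0.070 and Adk from -0.034 to 0.21. Under anti-CTLA-4, Adora2b ran from -0.083 to 0.18, Adk from -0.19 to 0.059 and Slc29a1 from -0.0089 to 0.17. Between treatments in control tumours, Entpd1 ran from -0.11 to 0.11, Cd38 from -0.057 to 0.074, Ada from -0.11 to 0.033 and Adk from -0.24 to 0.046, and in LDHA-KD tumours Cd38 from -0.037 to 0.041. Depth limits Adora1, with 5 to 108 counts per library.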
